A study of Salmo trutta with 45 samples.

Results

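Matrix metalloproteinases and their tissue inhibitors (TIMPs) were followed in the liver of juvenile female brown trout, aged 6 months, kept for 14 days in water with Roundup, with glyphosate alone or with neither of them. The family was found by annotation. A transcript was a member if it matched the zebrafish gene ENSDARG00000042816 (mmp9), or if 1 of its zebrafish, human or other fish annotations named a matrix metalloproteinase or a tissue inhibitor of metalloproteinase. This gave 41 transcripts, from 16 assembly components and 15 annotated genes, out of 67093 transcripts in all. Of the 41, 33 encoded proteinases and 8 encoded inhibitors. The family was proposed because mmp9 had differed between exposed and control fish in these same data, and mmp13a and MMP19 were known beforehand to differ too. For these 3 genes the values that were selected on are given as a description, with no p-value. Where calls are counted over the whole family, those on these genes are named, and nothing is read from them.

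Each library held liver RNA of 1 fish, from 12 controls and from 6 fish in each of 5 exposed groups. Roundup, a commercial formulation of the herbicide glyphosate, was given at 0.01 (LR), 0.5 (MR) and 10 (HR) mg/L, counted as glyphosate acid, and glyphosate at 0.01 (LG) and 10 (HG) mg/L. Fish of a treatment shared 2 tanks, the labels do not say which fish came from which tank, and the controls join 2 control groups that the labels do not tell apart, so p-values measure the spread between fish that shared water. A middle glyphosate group of 3 fish was not analysed here, and its dose differs between the sample labels and the study's design text. Every group was held in the same flow-through system.

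Matrix metalloproteinases are zinc enzymes that cut the proteins of the extracellular matrix, such as collagens and gelatin, and many signalling proteins at the cell surface. Most are made as inactive precursors that another protease must cut, and TIMPs block the active site once it is free. In the liver they take part in remodelling of the matrix around sinusoids, in fibrosis and its reversal, and in the entry of white blood cells. Transcription of several of them, mmp9 and the collagenases foremost, is known in mammals to be switched on through AP-1 (Fos and Jun proteins) and NF-kappa B.

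The 41 transcripts were not all in every table of counts. Of them, 32 were listed in all 5 comparisons, 2 in 4, 2 in 3, 3 in 2 and 2 in only 1, and 38 were listed for LR, 37 for MR, 36 for HR, 35 for LG and 36 for HG. Every transcript listed for a comparison had more than 1 CPM (counts scaled to library size) in at least 3 of its 18 fish, and between 2645 and 2881 transcripts a table sat at exactly 3. Of the 182 listings of members, 18 had fewer than 3 controls above 1 CPM and so needed the exposed fish to be listed, and 9 of these were minor transcripts of mmp9 or mmp13a. The other 9 were 1 listing of a second MMP15 gene and minor transcripts of MMP23B. Since such listings depend on the exposed fish, no count over them is read as support. All other numbers rest on the most expressed transcript of each gene unless a transcript is named. Transcripts of 1 component can share reads, so the split between them is uncertain.

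Reads on the transcripts common to all tables numbered 12883898 to 23708074 in controls and 10186777 to 33239495 in exposed fish. Markers of hepatocytes (9 of 15 symbols matched) summed to 54320 to 81230 CPM in controls and 52580 to 112600 CPM in exposed fish. Some fish stood apart from their group over the whole transcriptome. The distance of each fish from the median of the others in its group, averaged without sign over 49081 transcripts in log2 CPM, was 0.34 to 0.45 in controls, 0.78 in MR fish 1, 0.82 in LG fish 1, 0.58 in LR fish 3, 0.55 in HR fish 3 and 0.54 in MR fish 4. These 5 fish recur below, and the results for mmp9, mmp13a and MMP19 are also given without the fish that set them. The distance rests on fewer other fish in an exposed group than in the controls, which can raise it. Its median was 0.38 in controls and ran from 0.41 in LG to 0.45 in HG.

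The gelatinase gene mmp9 (gelatinase B, which cleaves denatured collagen and the type IV collagen of basement membranes) was low in control livers and high in a few exposed fish. Its main transcript ranged from 0.222 to 2.06 CPM in the 12 controls, with a median of 0.963. In LR it ranged from 0.491 to 5.53 CPM with a median of 2.40, and LR fish 3 (5.53), fish 6 (3.70) and fish 4 (3.51) lay above every control. In MR the median was only 1.16 CPM, close to the control median, while MR fish 1 reached 25.6 CPM and MR fish 4 reached 11.3. The other MR fish lay between 0.498 and 1.38 CPM, inside the control range.

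High Roundup gave a different picture, with most fish somewhat raised and 1 far above. The HR fish ranged from 0.605 to 16.7 CPM with a median of 2.13, HR fish 3 held the highest value, and 5 of 6 lay above the control median. In LG the median of 0.953 CPM matched the controls, and only LG fish 1 (6.11) and fish 3 (2.38) exceeded them. In HG all 6 fish lay within the control range, at 0.238 to 1.77 CPM, and 5 of 6 were under the control median. In all, 10 of the 30 exposed fish lay above the highest control. Over 49081 transcripts, the share above every control was 25.1% in LG fish 1, 21.1% in MR fish 1, 17.0% in LR fish 3 and 15.5% in HR fish 3. The median of this share ran from 7.39% in LG to 9.28% in MR. A place above every control was therefore not particular to mmp9 in those named fish. Of the other fish above every control for mmp9, LR fish 4 and MR fish 4 had shares of 13.8% and 13.4%. HR fish 4 had 10.2%, HR fish 1 had 9.89%, LG fish 3 had 7.62% and LR fish 6 had 5.52%, the lowest share in LR. In bulk liver, a larger number of mmp9-expressing cells and more mmp9 RNA per cell cannot be told apart.

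**Figure D1:**
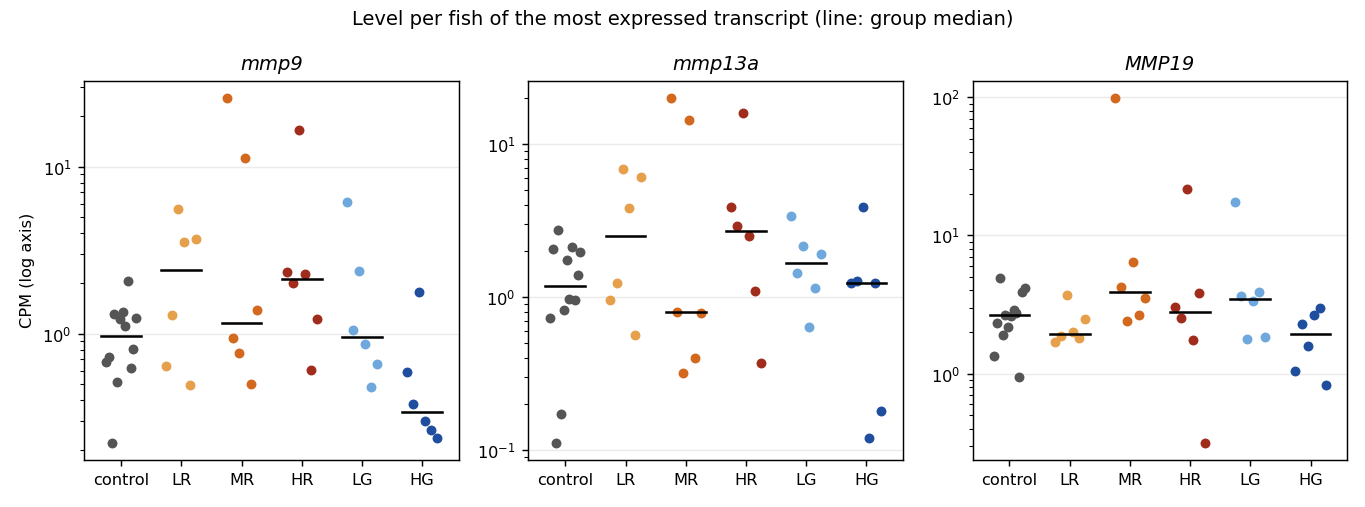
Level of mmp9, mmp13a and MMP19 in each fish (CPM, log axis) by group, 12 controls and 6 fish in each exposed group, with a line at the group median. For mmp9 and mmp13a, fish of LR, MR, HR and LG lie above the controls, and for mmp13a HG fish 3 does too. For MMP19 only fish of MR, HR and LG do. MR fish 1 is highest, at 25.6, 19.99 and 98.3 CPM for the 3 genes, while every exposed group also holds fish inside the control range.

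As group means, mmp9 stood at 0.988 ± 0.492 CPM in controls (SD, n = 12), 2.53 ± 2.03 for LR, 6.75 ± 10.2 for MR, 4.18 ± 6.15 for HR, 1.92 ± 2.16 for LG and 0.589 ± 0.591 for HG (n = 6 each). The SD was larger than the mean in MR, HR and LG, and just above it in HG. All 5 comparisons share the same 12 controls. The log2 fold change over controls was 1.36 ± 0.41 (SE) for LR, 2.74 ± 0.62 for MR, 2.08 ± 0.50 for HR, 0.94 ± 0.44 for LG and -0.69 ± 0.43 for HG. Single fish set these sizes: MR fish 1 held 48.9% of the mmp9 reads of its group, HR fish 3 held 64.5% and LG fish 1 held 42.7%. Without MR fish 1 the MR value was 1.60, without HR fish 3 the HR value was 0.75, and without LG fish 1 the LG value was 0.19. In LR, where 3 fish were high, it stayed at 1.00 without LR fish 3, and in HG it was -1.44 without HG fish 3.

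**Figure D2:**
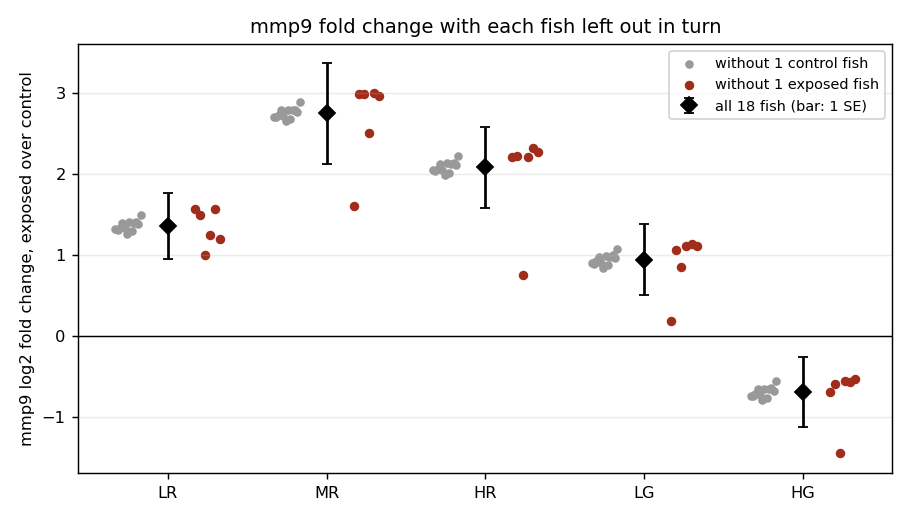
Log2 fold change of mmp9 (exposed over control) in the 5 treatments, as fitted on all 18 fish (diamond, bar 1 SE) and with each control (grey) or exposed fish (red) left out in turn. Leaving out a control moves the value little, whereas 1 exposed fish takes MR from 2.74 to 1.60, HR from 2.08 to 0.75 and LG from 0.94 to 0.19.

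The minor transcripts of mmp9 were highest in the same fish of each group as the main one. They belong to the same component and can share its reads, so this is no separate support. The second one was listed for LR, HR and LG only, at 0 to 1.096 CPM in controls, and reached 14.1 CPM in HR. In LG all 6 fish lay above its control median and 4 above its highest control, with a log2 fold change of 1.60 that was still 1.07 without LG fish 1. Among the 4 were LG fish 2 (1.264 CPM) and fish 4 (1.453), which were inside the control range for the main transcript. The third was listed for LR, MR and HR, at 0 to 1.30 CPM in controls, and reached 18.9 CPM in MR. Both had fewer than 3 controls above 1 CPM, so their listing needed the exposed fish.

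The collagenase gene mmp13a (ENSDARG00000012395) encodes an enzyme that cuts intact fibrillar collagen. It was high in largely the same fish as mmp9. Controls ranged from 0.111 to 2.74 CPM with a median of 1.18. The highest values were 19.99 CPM in MR fish 1, 16.0 in HR fish 3, 14.4 in MR fish 4, 6.85 in LR fish 3 and 6.10 in LR fish 6. The remaining MR fish lay at 0.316 to 0.799 CPM, and the MR median of 0.792 was below that of the controls. Of the 10 exposed fish above every control for mmp13a and the 10 for mmp9, 8 were the same.

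The log2 fold change of mmp13a was 1.32 ± 0.49 for LR, 2.19 ± 0.69 for MR, 1.76 ± 0.55 for HR, 0.42 ± 0.44 for LG and 0.03 ± 0.54 for HG (SE). Without the highest fish the MR value was 1.35 and the HR value 0.70. In HG, HG fish 3 at 3.88 CPM was the only fish above the controls, and without it the value was -0.72. A second transcript of mmp13a, also in all 5 tables, gave 1.23, 2.38, 1.81, 0.52 and -0.73 in the same order. The HG values of these transcripts, 0.03 and -0.73, differ in sign.

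MMP19 (ENSDARG00000091557), a secreted proteinase known in humans to cut basement membrane proteins, was high in still fewer fish. Controls ranged from 0.954 to 4.94 CPM with a median of 2.65. MR fish 1 held 98.3 CPM, HR fish 3 held 21.5, LG fish 1 held 17.6 and MR fish 4 held 6.41, and these 4 were the only exposed fish above the controls. All 4 were also above every control for mmp9 and for mmp13a. In LR, with 3 fish high for mmp9, MMP19 lay at 1.70 to 3.73 CPM, inside the control range.

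For MMP19 the log2 fold change was -0.28 ± 0.27 for LR, 2.81 ± 0.61 for MR, 1.00 ± 0.49 for HR, 0.93 ± 0.39 for LG and -0.54 ± 0.31 for HG (SE). MR fish 1 held 73.1% of the MMP19 reads of MR, and without it the MR value was 0.49. Without HR fish 3 the HR value turned to -0.24, and without LG fish 1 the LG value was 0.08.

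Across all transcripts, calls were made at an adjusted p under 0.1 with edgeR's quasi-likelihood test. In LR it called 0 of 38 members, against 0.0209% of all transcripts tested. In MR it called 0 of 37 members, against 0.00159%, and in HR 0 of 36, against 0.00639%. In LG it called 0 of 35 members, against 0%, and in HG 0 of 36, against 0.00157%. Members with an unadjusted p under 0.05 numbered 7 for LR, 6 for MR, 7 for HR, 4 for LG and 5 for HG, and outside the 3 selected genes they numbered 2, 0, 2, 1 and 5 in that order. Of all transcripts, 7.75% for LR, 8.93% for MR, 7.34% for HR, 6.72% for LG and 6.48% for HG had such a p.

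The call depended on the test. With edgeR's exact test (prior of 10 degrees of freedom), 6 members were called higher in MR against 0.992% of all transcripts, namely 3 transcripts of mmp13a, 2 of mmp9 and MMP19. The same test called 4 members higher in HR against 0.671%, namely 3 transcripts of mmp9 and 1 of mmp13a, and 1 higher in LG against 0.446%, a minor transcript of mmp9. It called 0 members in LR against 0.163% and 0 in HG against 0.0551%. DESeq2 called 1 member in MR against 0.743% of all transcripts and 2 in HR against 0.275%, all mmp9. It called 0 members in LR against 0.249%, in LG against 0.0504% and in HG against 0.0346%. It gave MMP19 in MR no adjusted p. All these calls fell on the genes that the family was selected on, so nothing is read from their share. Without MR fish 1, HR fish 3 or LG fish 1 the exact test called 0 members in the comparison of that fish. Calls over all transcripts fell as well, to 0.0718% in MR, 0.0288% in HR and 0.0126% in LG, so the loss was not particular to the members.

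No other member was called in any treatment by the quasi-likelihood test, the exact test or DESeq2. Of these other members 30 were tested for LR, 31 for MR, 30 for HR, 30 for LG and 32 for HG, and their log2 fold changes ran from -0.91 to 0.55 over the 5 treatments. Their median log2 fold change was -0.06 for LR, -0.03 for MR, -0.08 for HR, -0.04 for LG and -0.16 for HG, while the median of all transcripts was within 0.01 of 0 in each treatment.

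**Figure D3:**
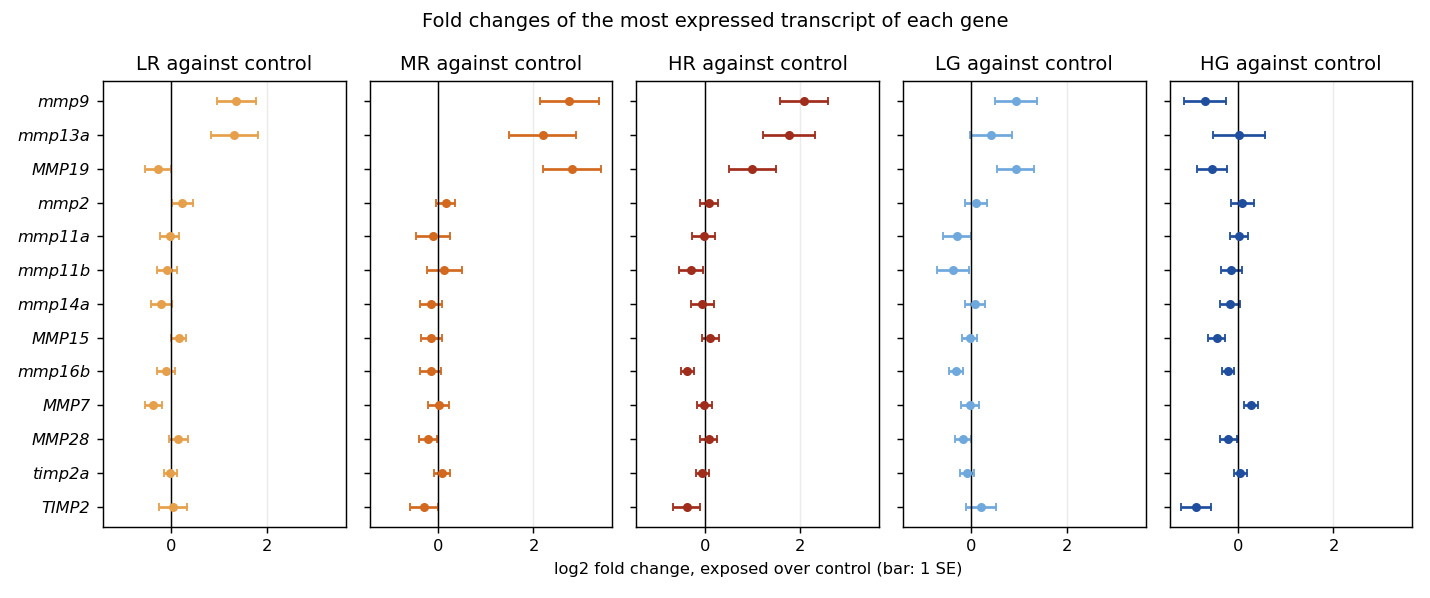
Log2 fold change over controls (x axis, bar 1 SE) of the most expressed transcript of 13 genes in the 5 treatments, from edgeR's quasi-likelihood fit. Values for mmp9 and mmp13a lie at 1.32 to 2.74 in the 3 Roundup groups and MMP19 at 2.81 in MR, while the 10 other genes lie between -0.88 and 0.28 in every treatment.

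The other gelatinase, mmp2 (gelatinase A, made mainly by mesenchymal cells such as stellate cells), overlapped the controls in every group. It ranged from 21.1 to 45.8 CPM in controls, with a mean of 34.5 ± 9.04 (SD, n = 12). Group means were 40.8 ± 17.2 CPM in LR, 38.7 ± 13.5 in MR and 37.1 in each of HR, LG and HG (n = 6), where the fish ranged from 22.7 to 54.9, from 14.2 to 51.8 and from 14.1 to 68.4 CPM. Above the highest control lay 8 of 30 exposed fish, among them LG fish 4, 5 and 6 at 48.2, 51.8 and 51.1 CPM. Over all transcripts, the median share above every control ran from 7.39% in LG fish to 9.28% in MR fish. LG fish 1 and HG fish 1, at 14.2 and 14.1 CPM, lay below the lowest control. The log2 fold changes were 0.09 to 0.23, with adjusted p from 0.83 to 0.97 by edgeR's quasi-likelihood test. The widest 95% intervals ran from -0.36 to 0.55 in LG and HG and from -0.18 to 0.65 in LR. MR fish 1 and HR fish 3, the extremes for mmp9, were not among the 3 highest fish for mmp2, which were LR fish 5 (68.6 CPM), HG fish 4 (68.4) and MR fish 6 (64.0).

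Stromelysin 3, which unlike most of the family leaves the cell already active after cutting by furin, is encoded by mmp11a (ENSDARG00000026325) and mmp11b (ENSDARG00000016718). Their 8 transcripts shared 1 component. In controls mmp11a ranged from 2.84 to 7.73 CPM and mmp11b from 2.67 to 7.28 CPM. Group means of mmp11a were 4.23 to 5.37 CPM in exposed fish and 5.21 ± 1.24 in controls, and neither gene was called in any treatment (lowest adjusted p 0.882, quasi-likelihood test).

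Single fish, however, had very little stromelysin 3, and they were the fish with the most mmp9. Summed over the 8 transcripts the controls held 12.3 to 29.5 CPM. MR fish 1 held 1.58 CPM, LG fish 1 held 2.18, HR fish 3 held 4.18 and MR fish 4 held 5.91. These 4 were the lowest of all 42 fish, and the same 4 had the highest mmp9. The next lowest were HG fish 3 at 10.4 CPM and control fish 9 at 12.3, and these held the highest mmp9 of their own groups, at 1.77 and 2.06 CPM. The other 4 MR fish, with mmp9 in the control range, had mmp11b at 7.05 to 8.87 CPM.

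**Figure D4:**
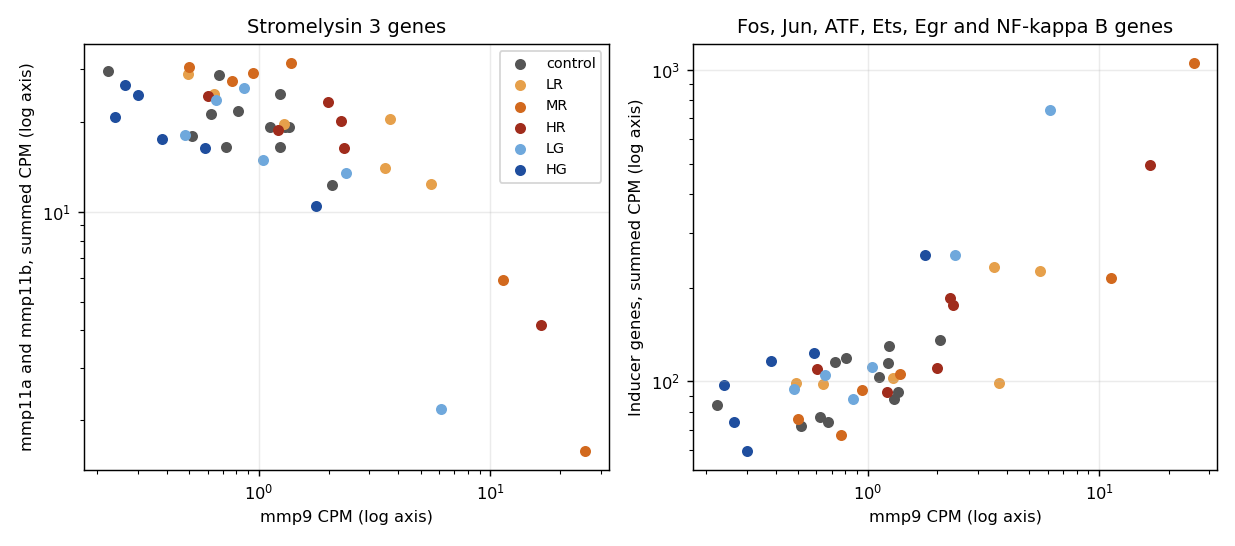
Each point is 1 of 42 fish, with mmp9 (CPM, log axis) on the x axis, and on the y axes (log) the summed CPM of mmp11a and mmp11b (left) and of 13 inducer genes (right). The 4 fish with the most mmp9 hold 1.58 to 5.91 CPM of stromelysin 3 against 12.3 to 29.5 in controls, and 215 to 1052 CPM of the inducers against 72.1 to 136 in controls.

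As a description over the 42 fish, log2 CPM of mmp11a had a Spearman rho of -0.59 and a Pearson r of -0.79 with mmp9, and mmp11b had -0.61 and -0.78. Without MR fish 1 and HR fish 3 the Pearson values were -0.67 and -0.65. Within the 12 controls alone, rho was -0.52 for mmp11a and -0.42 for mmp11b. For mmp13a, rho was 0.79 and r 0.87 over the 42 fish, r was 0.82 without those 2 fish, and rho was 0.78 within the controls. For MMP19 rho was 0.25 and r 0.62, r was 0.33 without the 2 fish, and rho was 0.007 within the controls. The fish differ in group and in the departure of their whole transcriptome, which these values share.

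Membrane-type metalloproteinases stay anchored at the cell surface, and mmp14a (ENSDARG00000002235) encodes the fish counterpart of the enzyme that activates the precursor of gelatinase A in mammals. In controls mmp14a ranged from 4.79 to 17.2 CPM and averaged 11.0 ± 3.94 (SD, n = 12), and exposed group means were 9.54 to 11.7 CPM. Its log2 fold changes were -0.21 to 0.08. Only 1 of the 30 exposed fish, HR fish 4 at 18.3 CPM, lay above the controls.

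The membrane-type gene mmp16b (ENSDARG00000058876) was lower than the controls on average in all 5 treatments, by small amounts. Controls ranged from 7.39 to 12.8 CPM, with a mean of 10.54 ± 1.57. The HR mean was 8.26 ± 1.72 CPM and the LG mean 8.57 ± 2.20 CPM (n = 6). Log2 fold changes were -0.11, -0.15, -0.37, -0.32 and -0.21 in LR, MR, HR, LG and HG, and none was called (adjusted p 0.52 to 0.92). Its second transcript had the lowest adjusted p of all members outside the 3 selected genes, 0.30 in HR with a log2 fold change of -0.65 ± 0.17 (quasi-likelihood test). In HR this transcript ranged from 2.69 to 5.07 CPM against 3.63 to 7.22 in controls, and all 6 fish lay under the control median.

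The lowest mmp16b of all fish was again in MR fish 1, at 2.77 CPM, while MR fish 6 and LR fish 2 held the highest values, 16.4 and 17.3 CPM. MMP15 (ENSDARG00000013072), another membrane-type enzyme, had its lowest value in the same fish, 1.88 CPM against 4.14 to 7.60 in controls. In HG the mean of MMP15 was 4.06 ± 1.34 CPM against 5.50 ± 1.16 in controls, with 3 of 6 fish under the lowest control. Its log2 fold change there was -0.45 ± 0.18, with an adjusted p of 0.74. A second MMP15 gene, listed for LR only and with no control above 1 CPM, lay at 0.138 to 1.404 CPM there and at 0.153 to 0.898 CPM in controls.

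**Figure D5:**
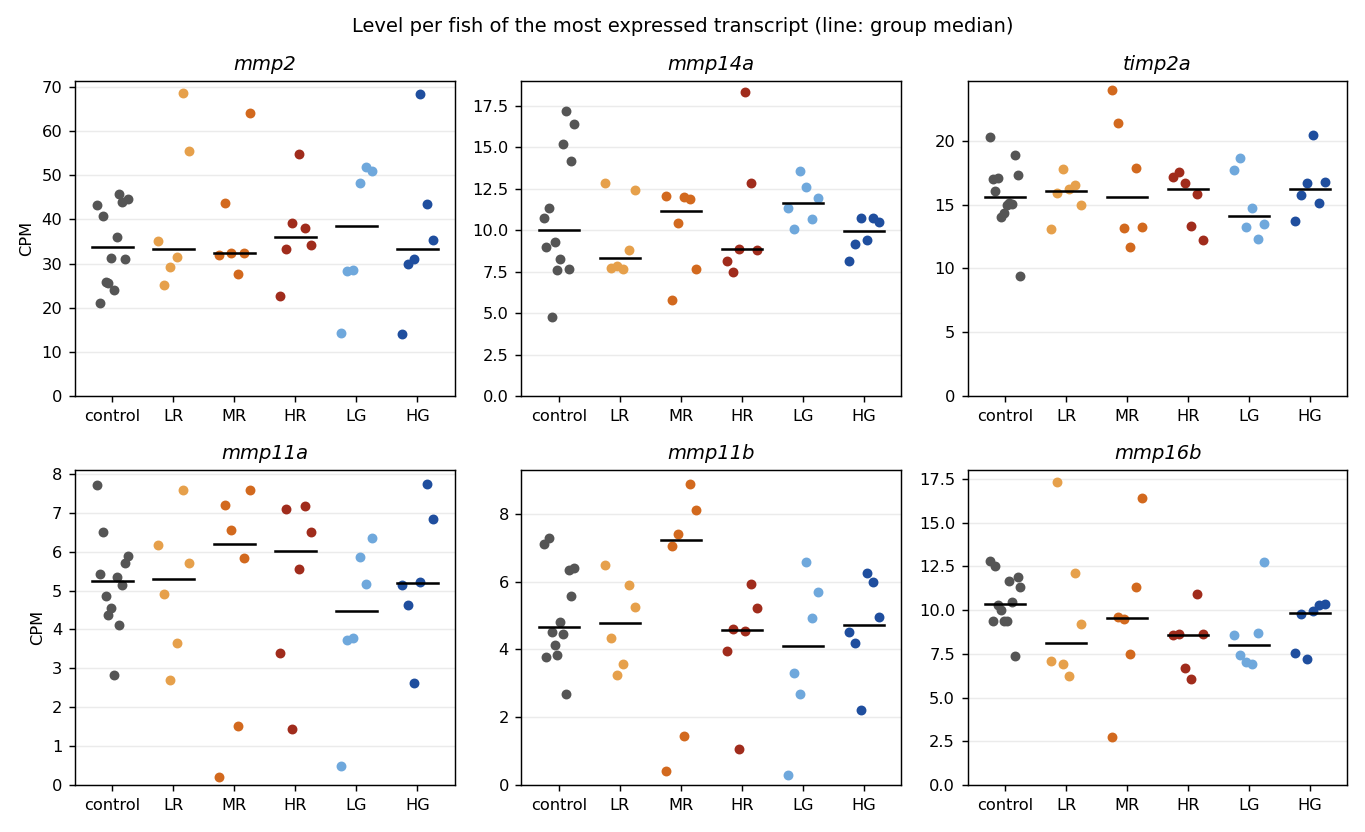
Level of 6 other members in each fish (CPM, linear axis from 0) by group, with a line at the group median. The groups overlap for mmp2, mmp14a and timp2a, while single fish are low for mmp11a and mmp11b (0.198 and 0.396 CPM in MR fish 1) and for mmp16b (2.77 CPM in MR fish 1).

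The remaining proteinases averaged 10.89 (MMP28), 2.56 (MMP7) and 1.045 (MMP23B) CPM in controls. MMP28 (epilysin, which in mammals is found in many tissues) ranged from 6.10 to 15.7 CPM in controls and had log2 fold changes of -0.21 to 0.15. It was named from its mouse or human match, since its zebrafish match is uncharacterised. MMP7 (matrilysin by its zebrafish match, but MMP23B by the other species) was lower in LR, at 1.97 ± 0.48 against 2.56 ± 0.55 CPM in controls, with a log2 fold change of -0.38 ± 0.18 and an adjusted p of 0.63. All 6 LR fish lay under its control median, while in HG all 6 lay above it, with a log2 fold change of 0.28 ± 0.15 and an adjusted p of 0.81. MMP23B, a metalloproteinase that lacks the usual haemopexin domain, had log2 fold changes of -0.91 ± 0.37 in LR (adjusted p 0.56) and -0.16 to 0.18 in the other 4 treatments.

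Among the inhibitors, the most expressed transcript of timp2a (ENSDARG00000061226) hardly varied. TIMP-2 blocks most metalloproteinases and, bound to the membrane-type enzyme, also takes part in the activation of gelatinase A. Its transcript ranged from 9.43 to 20.3 CPM in controls, with a mean of 15.8 ± 2.74 (SD, n = 12), and group means were 15.0 to 16.9 CPM in exposed fish. Log2 fold changes were -0.09 to 0.09, and their 95% intervals lay between -0.37 and 0.41. MR fish 1, highest of all for mmp9, was also highest for timp2a, at 23.9 CPM, and HR fish 3 was within the control range.

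The lowest inhibitor values relative to controls were in HG, without passing the test. A timp2a transcript of another component averaged 3.08 ± 0.85 CPM in HG (n = 6) against 4.66 ± 1.07 in controls, and all 6 HG fish lay under the control median. Its log2 fold change was -0.61 ± 0.18, with an adjusted p of 0.65 (quasi-likelihood test). TIMP2, a neighbouring component named only by its match in another fish, was 0.621 ± 0.353 CPM in HG against 1.14 ± 0.44 in controls, with a log2 fold change of -0.88 ± 0.32 and an adjusted p of 0.72. In LR, MR, HR and LG the same transcript had log2 fold changes of 0.04, -0.30, -0.38 and 0.21. A less expressed TIMP2 transcript of this component averaged 0.618 ± 0.414 CPM in controls and 0.556 ± 0.141 in HG. It averaged 0.601 in LR and 0.645 in LG, but was higher than in controls in MR (0.813) and HR (0.914). The split of reads between these transcripts is uncertain. No transcript annotated as another TIMP was found by the rule.

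Roundup and glyphosate were compared directly at matched doses of the active ingredient. In HR against HG, edgeR's quasi-likelihood test called 0 of 34 members, against 0% of all transcripts, with 8 members at an unadjusted p under 0.05, of which 4 lay outside the selected genes, beside 5.72% of all transcripts. The exact test called 0 members there against 0.0114% of all transcripts, and DESeq2 0 against 0.0507%. For mmp9, 4 of 6 HR fish lay above the highest HG fish and all 6 above the HG median, and the log2 fold change of HR over HG was 2.76 ± 0.78 (SE), or 1.44 without HR fish 3. The HR fish are those in which mmp9 was selected, so this too is a description. Outside the selected genes the lowest adjusted p was 0.873 (quasi-likelihood test), shared by members that included a minor transcript of the inhibitor timp2a and MMP15. Both had a log2 fold change of 0.56 ± 0.25, and for MMP15 3 of 6 HR fish lay above every HG fish. For mmp13a the value was 1.73 ± 0.79 and for MMP19 1.54 ± 0.69, or 0.67 and 0.29 without HR fish 3.

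In LR against LG the quasi-likelihood test called 0 of 34 members, against 0% of all transcripts, with 2 at an unadjusted p under 0.05, of which 1 lay outside the selected genes, beside 2.50% of all transcripts. The exact test called 0 members against 0.0213% of all transcripts, and DESeq2 0 against 0%. The log2 fold change of LR over LG was 0.41 ± 0.66 for mmp9, 0.89 ± 0.56 for mmp13a and -1.22 ± 0.50 for MMP19. Without LG fish 1 these were 1.17, 1.16 and -0.36. Among members outside the selected genes, MMP23B was lower in LR than in LG, at 0.568 ± 0.278 against 1.07 ± 0.47 CPM (n = 6), with a log2 fold change of -0.92 ± 0.39 and an adjusted p of 1.00. For mmp2 the 95% interval of the difference ran from -0.50 to 0.78, and for timp2a from -0.24 to 0.37.

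The genes most like mmp9 were ranked by Spearman rho of log2 CPM over the 42 fish, among 9279 annotated genes outside the family. The first was toll-like receptor 5b, which senses bacterial flagellin, at a rho of 0.82. Its transcript ranged from 0.833 to 13.8 CPM in controls and reached 715 for MR, 398 for HR, 268 for LG, 157 for LR and 92.9 for HG. The others, at 0.77 to 0.81, were a leucyl-tRNA synthetase, carboxypeptidase N polypeptide 2, STAT2 (an interferon signal carrier), hexose-6-phosphate dehydrogenase, complement c3a, complement factor B, HIVEP1 and 2 ribosome binding protein 1 homologs. Over the 12 controls alone the first 3 were CLIC5, SPEN and AGFG1, at 0.92 to 0.94, and none of the 10 named over all fish was among the 10 named over the controls.

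Genes known to act on the family were taken as lists. Of 24 symbols for activators and other inhibitors of proteinases 11 were found, in 72 transcripts, among them plasminogen, its activator PLAU, and RECK, a membrane-bound inhibitor. The quasi-likelihood test called 0 of 72 in every comparison, with 5, 4, 2, 2 and 2 at an unadjusted p under 0.05 in LR, MR, HR, LG and HG, and the exact test called 2 lower in MR and 1 higher in LG. Over all transcripts, between 6.48% in HG and 8.93% in MR had an unadjusted p under 0.05, and the exact test called 0.992% in MR and 0.446% in LG. The call in LG was TFPI2, an inhibitor of plasmin and several matrix proteinases, with a log2 fold change of 0.84 in LG. PLAU, at 6.18 CPM in controls, had a log2 fold change of -1.90 in MR (adjusted p 0.398 by the quasi-likelihood test). The median log2 fold change of the list was 0.12, 0.04, 0.02 and 0.07 in LR, MR, HR and LG and -0.003 in HG.

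As a sum, the known inducers were high in most of the fish with high mmp9, though single genes of the list differed. Of 26 symbols 13 were found, in 46 transcripts, covering Jun, Fos-like, ATF3, EGR1, Ets and NF-kappa B genes, and their summed level was 72.1 to 136 CPM in controls. It was 1052 CPM in MR fish 1, 744 in LG fish 1, 495 in HR fish 3, 256 in LG fish 3, 255 in HG fish 3, 233 in LR fish 4, 226 in LR fish 3 and 215 in MR fish 4. LR fish 6, with mmp9 at 3.70 CPM, held 98.8 CPM of the inducers, within the control range. Group medians, at 100.6 for LR, 99.8 for MR, 143 for HR, 108 for LG and 107 for HG, lay near the control median of 98.0 except for HR. The part of these factors in the mmp9 levels was not tested.

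The inducer list was chosen with earlier results of these data known. The study had reported FOSL2, ATF3 and NF-kappa B genes as up-regulated in several of these groups. The counts below are therefore a description, and nothing is read from their share. By the quasi-likelihood test 0 inducer transcripts were called in any treatment. At an unadjusted p under 0.05 by this test were 15 of 45 for LR, 33 of 45 for MR, 21 of 45 for HR, 26 of 45 for LG and 7 of 43 for HG, beside 6.48% to 8.93% of all transcripts. The exact test called 17 higher for MR, 11 for HR, 12 for LG and 0 for LR and HG, and 0 lower, where it called 0.992%, 0.671% and 0.446% of all transcripts in MR, HR and LG. Without MR fish 1, HR fish 3 or LG fish 1, its calls over all transcripts fell to 0.0718%, 0.0288% and 0.0126%. Inducer calls were not recounted without these fish. The inducer transcripts came from 13 symbols, and those of 1 component can share reads, so they are not separate genes. The median log2 fold change of the list was 0.49 for LR, 1.06 for MR, 0.65 for HR, 0.98 for LG and 0.20 for HG, beside medians within 0.01 of 0 over all transcripts. FOSL2, a Fos-like partner of Jun, stood at 0.343 CPM in controls and reached 39.4 CPM in MR fish 1, 16.8 in LG fish 1 and 11.4 in HR fish 3. ATF3, a stress-responsive factor, went from 0.584 CPM in controls to 22.8, 9.27 and 10.54 CPM in these fish. RELB, an NF-kappa B subunit, was above every control in 4 of 6 HR fish, with a log2 fold change of 1.74 there. Other inducers did not rise in this way. JUND had log2 fold changes of -0.80 in MR and -0.28 to -0.09 in the other treatments, and NFKB1 of -0.14 to 0.21. REL was highest in LR fish 2, MR fish 6 and HR fish 5 of the Roundup groups, all with mmp9 in the control range, and in LG fish 1 for LG.

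The ADAM and ADAMTS genes stood beside the family as other metalloproteinases. They encode membrane-bound sheddases and secreted matrix proteinases and gave 83 transcripts, of which the quasi-likelihood test called 0 in any treatment and the exact test 1, ADAMTS10, lower in LG, where it called 0.446% of all transcripts. The 83 transcripts came from 16 gene names, and those of 1 component can share reads, so counts of them are not counts of separate genes. At an unadjusted p under 0.05 were 23 of 77 for LR, 31 of 79 for MR, 3 of 78 for HR, 3 of 78 for LG and 5 of 77 for HG, beside 7.75%, 8.93%, 7.34%, 6.72% and 6.48% of all transcripts. Their median log2 fold change was 0.22, 0.35, 0.16, 0.14 and -0.11 in that order. Collagens and other substrates gave 163 transcripts from 24 gene names, of which 0 were called by the quasi-likelihood test. The exact test called 1 higher and 8 lower in MR, against 0.992% of all transcripts, and 1 higher in LG, against 0.446%. At an unadjusted p under 0.05 were 8, 39, 6, 12 and 11 of 154, 155, 155, 160 and 157 tested in LR, MR, HR, LG and HG, and the median log2 fold change was -0.20 in MR and between -0.14 and 0.12 in the other treatments.

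White blood cells carry mmp9 in fish and mammals, and their markers were summed in each fish. Of 13 neutrophil markers 7 were matched, including the myeloid peroxidase mpx by its zebrafish name, and their sum was 26.1 to 59.0 CPM in controls. It was 79.0 in LG fish 1, 73.0 in HR fish 3, 63.3 in MR fish 1, 62.5 in LR fish 3 and 56.6 in MR fish 4, while group ranges were 34.8 to 62.5 in LR, 35.1 to 63.3 in MR, 35.0 to 73.0 in HR, 30.1 to 79.0 in LG and 31.7 to 45.9 in HG. LR fish 4, LR fish 6, HR fish 1, HR fish 4 and LG fish 3 were also above every control for mmp9. They held 35.2, 42.9, 58.2, 52.3 and 30.1 CPM of the neutrophil markers in that order. These values, and that of MR fish 4, were inside the control range. Macrophage markers (8 of 14 matched) without MFAP4, which makes up most of their sum, summed to 72.3 to 117 CPM in controls, 115 in MR fish 1, 109 in HR fish 3, 99.9 in MR fish 4 and 197 in LG fish 1. With MFAP4 the sum was 377 to 3564 CPM in controls, and 3944, 5029, 5100 and 4711 CPM in those 4 fish. LG fish 2 and HR fish 1, at 133.0 and 129.8 CPM without MFAP4, were above every control too. Of these, LG fish 2 had mmp9 inside the control range, at 1.04 CPM. Without MFAP4 the largest part was CD68, which averaged 38.8 CPM in controls and reached 65.3 in MR fish 1 and 100.2 in LG fish 1. In MR only 2 of the 12 transcripts without MFAP4 were higher than in controls, with a median log2 fold change of -0.30. In LR 8 of 12 were higher, in HR 10 and in LG 11, and in HG 2 of 11. The part of these cells in the mmp9 levels was not tested.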

How the data were processed

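The deposited values are raw read counts per transcript, which the authors made by mapping to their own Trinity assembly with Bowtie2 2.1.0 (1 hit per read) and counting with SAMtools 0.1.18. Columns with the authors' own fold changes, mean expression, p-values, FDR and calls were not used. 1 repeated header line was left out. The files name no genome build, and no coordinates are given.

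Each treatment was compared with the controls, and HR with HG and LR with LG, over all transcripts with 1 read or more in 6 or more fish (edgeR 4.0.16 in R 4.3.3: TMM, quasi-likelihood F-test, 2-sided, Benjamini-Hochberg over all transcripts, calls under 0.1). Intervals are 95% normal intervals from the standard error. CPM values use TMM over transcripts common to all tables, and log2 CPM a prior count of 2. Alternatives were RLE size factors, other filters, the exact test, DESeq2 1.42.0, counts summed per component, a threshold of 0.05, a replicate block and leaving out each fish. The exact test without 1 fish was added after the data were seen. The tests were checked on simulated data. Tables were joined with pandas 2.3.3 under Python 3.11.15 (with scipy 1.17.1 and numpy 2.4.6) and drawn with matplotlib 3.10.9.

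Members and lists were chosen with earlier results of these data known. Genes were described by their most expressed transcript, more briefly where it averaged under 1 CPM. The 10 genes most like mmp9 were named by rank correlation. List symbols were matched whole against the other fish symbol, and mpx was added by its zebrafish name after the annotation was seen.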

Additional observations from a re-analysis of the deposited data

Results flagged for a closer look

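In 11 of 65 groups of 6 fish examined (13 genes in 5 treatments), 1 fish lay so far from the nearest other fish that the gap took most of the range of its group. For normally distributed values chance gives this in about 1 group in 20. The values here were CPM, which were skewed for several genes, so that rate need not hold and no excess is read from the count. Of the 11, 8 were in mmp9, mmp13a or MMP19, which were selected on these values, and the other 50 groups gave 3. For mmp9 these were HR fish 3 at 16.65 CPM, LG fish 1 at 6.111 CPM and HG fish 3 at 1.768 CPM, of which the last is inside the range of the controls. For mmp13a they were HR fish 3 at 16.03 CPM and HG fish 3 at 3.878 CPM. For MMP19 they were MR fish 1 at 98.25 CPM, HR fish 3 at 21.52 CPM and LG fish 1 at 17.56 CPM. The others were TIMP2 in HG fish 4 at 1.321 CPM, MMP15 in LG fish 2 at 7.199 CPM and mmp16b in LG fish 6 at 12.78 CPM, all within the range of the controls.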

How the results depend on the processing

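By the quasi-likelihood test 0 members were called in each of the 7 comparisons, and the count stayed at 0 with RLE size factors, without a filter, with a filter of more than 1 CPM in 6 or more fish, with counts summed per component and at an adjusted p under 0.05. With edgeR's exact test it was 6 in MR, 4 in HR and 1 in LG, and with DESeq2 1 in MR and 2 in HR. Leaving out 1 fish gave 0 to 2 members called in MR and 0 to 2 in HR, and 0 in the other comparisons over their fits. Over all transcripts these fits called 0 to 161 in MR, 0 to 132 in HR, 0 to 21 in LR, 0 to 1 in LG and 0 to 2 in HG. The 2 in MR were mmp9 and MMP19, without MR fish 2, 3 or 5, and the 2 in HR were transcripts of mmp9, without HR fish 5 or 6. Each of these fish had mmp9 in the control range. The calls fell on selected genes, so nothing is read from them. With the replicate number as a block, 0 members were called in every comparison. The numbers did not pair the fish: the correlation of same-numbered deviations ran from -0.31 to 0.23, and 1 or 2 of 6 pairs in each treatment were over 0.1. Of 1625 fold changes recomputed for 13 genes under all alternatives, 1622 moved by less than 1 SD of the exposed fish. That SD is widened by the fish that stand apart, and many of the alternatives left out 1 control only. Large moves can therefore stay under it, and the count is not read as stability. Of 325 for pairs with a log2 fold change of 0.5 or more in size, 1 changed sign, MMP19 in HR without HR fish 3, at -0.24. Over all pairs 3 values moved by more, and 94 changed sign. With the exact test, members called numbered 0 in MR without MR fish 1, in HR without HR fish 3 and in LG without LG fish 1. Those fits called 0.0718%, 0.0288% and 0.0126% of all transcripts. The choice of these fish was made after seeing the data. Fits on counts at about 1 CPM rest on few reads in a fish, which limits single values.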
